A study of Mus musculus with 22 samples.

Results

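The genes described here code for 10 enzymes that oxidize ethanol and acetaldehyde, or closely related aldehydes, or that activate acetate. They were the rows of the deposited count table whose Ensembl identifier carries the symbol Adh5, Adh1, Cat, Aldh2, Aldh1a1, Aldh7a1, Aldh9a1, Aldh3a2, Acss1 or Acss2, which is 10 of 39056 genes. Counts came from 22 libraries made from the prefrontal cortex (PFC) of 11 male transgenic mice on a C57BL/6J background, adults of 8 to 12 weeks. Every mouse carried CaMKIIα-tTA and tetO-EGFP/Rpl10a, so that a ribosomal protein tagged with EGFP is made in cells that use the CaMKIIα promoter. Each mouse gave a TRAP library, from RNA pulled down with the tagged ribosomes, and a total-RNA library (INPUT), for which part of that lysate was kept aside. Control mice (n = 3) received saline i.p. for 4 days, EtOH mice (n = 4) received ethanol to 2 g/kg per day in 2 injections a day for 4 days, and EtOH + ABT-888 mice (n = 4) received the same ethanol and, on day 4, the PARP inhibitor ABT-888 at 25 mg/kg. There was no group with ABT-888 alone, and all mice were killed 2 h after the last injection, so levels belong to that time.

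In the liver, ethanol is turned into acetaldehyde mainly by alcohol dehydrogenases of the ADH1 class, acetaldehyde into acetate mainly by the mitochondrial enzyme Aldh2, and acetate into acetyl-CoA by the synthetases Acss1, in mitochondria, and Acss2, in the cytosol and nucleus. The brain holds little ADH1, and catalase, which uses hydrogen peroxide, is regarded as the main route from ethanol to acetaldehyde there. Acetyl-CoA made by nuclear Acss2 can serve the acetylation of histones.

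Counted reads lay between 6570957 and 22002618 per TRAP library and between 22132534 and 32421392 per total-RNA library, and the smallest library was replicate 2 of EtOH + ABT-888_TRAP. Levels are normalized CPM, which are read counts scaled to library size and TMM factors, as mean ± SD. Differences are log2 fold changes, log2FC, with the first group of a comparison minus the second, and they were tested with edgeR's quasi-likelihood test. Called means a Benjamini-Hochberg adjusted p under 0.05 over the 14072 genes that had at least 500 counts over the 22 libraries and were detected in at least 3, and 9 of the 10 enzyme genes passed that filter. As a check of the TRAP label, 33 of 33 markers of astrocytes, oligodendrocytes, microglia and vessels were lower in Control_TRAP than in Control_total-RNA, with a median log2FC per list between -3.41 and -3.10. The markers of excitatory neurons were not enriched as a group, since 1 of 8 (Nrgn, log2FC 1.20) was higher and 6 were lower in Control_TRAP, with a median log2FC of -1.16, and Camk2a itself was at 1883 CPM in Control_TRAP and 2092 CPM in Control_total-RNA (log2FC -0.17, adjusted p 0.203 by edgeR). Of 6 markers of inhibitory neurons, 3 (Gad1, Gad2 and Slc32a1) were higher in Control_TRAP, with log2FC between 1.12 and 2.52, and Pvalb was lower (log2FC -2.36). TRAP is therefore called by its label here, and not by a cell type.

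Ethanol oxidation was represented by Cat and Adh5, while Adh1 was almost absent. Adh1, the mouse ADH1 enzyme, on chromosome 3 from 138260991 to 138290698 (mm10), had 81 counts in all 22 libraries together. It had 0 counts in each of the 3 Control_TRAP libraries, 2, 3, 4 and 0 in EtOH_TRAP, and 0, 8, 7 and 2 in EtOH + ABT-888_TRAP. In total-RNA it had 3, 4 and 2 counts in Control, 2, 7, 8 and 6 in EtOH, and 5, 3, 10 and 5 in EtOH + ABT-888. The 0 counts in Control_TRAP allow up to 0.0667 CPM over the group (3 counts over the 3 libraries), which covers counting error only. Adh1 did not pass the filter and was not tested, and it overlaps the antisense gene Gm16559 by 6.09% of its exon bases.

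Other genes of ethanol oxidation outside the brain also had few counts. Cyp2e1, the microsomal ethanol-oxidizing cytochrome, had 14 counts over the 22 libraries, Adh7, the ADH of the stomach, had 41, Adh6a and Adh6b had 2 each, and Adh4 had 0. Of the 7 genes listed for alcohol oxidation beside the enzymes above, Adhfe1 and the aldehyde reductase Akr1a1 passed the filter, and Akr1a1 was at 233.9 CPM in Control_TRAP and 185.1 CPM in Control_total-RNA (log2FC 0.32, adjusted p 0.0104 by edgeR).

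Per length, Cat was the most abundant of the 10 genes in total-RNA (levels as CPM per kb of exon). In Control_total-RNA, Cat was at 16.9 ± 0.82 CPM per kb (SD, n = 3), and its 3 libraries lay above those of the next gene, Aldh7a1, at 10.2 ± 0.65. Aldh2, at 9.78 ± 0.64, overlapped Aldh7a1, and Aldh1a1 (8.02 ± 0.47) overlapped Aldh3a2 (7.91 ± 0.46). Both pairs stood apart from each other and from Adh5 (5.45 ± 0.28), which overlapped Aldh9a1 (5.16 ± 0.087), as Aldh9a1 overlapped Acss1 (4.77 ± 0.33). Acss2 (3.34 ± 0.24) lay below Acss1 in all 3 libraries, and Adh1 was last at 0.0485 ± 0.018.

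The order was different in Control_TRAP, where no gene led. Cat (7.15 ± 0.37 CPM per kb, SD, n = 3), Aldh7a1 (6.58 ± 0.46), Aldh3a2 (6.47 ± 0.63), Aldh2 (6.36 ± 0.98) and Adh5 (5.56 ± 0.76) each overlapped the next. A gap followed, with Acss2 at 1.89 ± 0.032 CPM per kb, Aldh9a1 at 1.55 ± 0.58 and Aldh1a1 at 1.28 ± 0.14. Acss1, at 0.702 ± 0.11 CPM per kb, lay below all of these. Cat was first by mean in all 6 groups, and in the TRAP groups its libraries always overlapped those of the gene in second place.

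**Figure D1:**
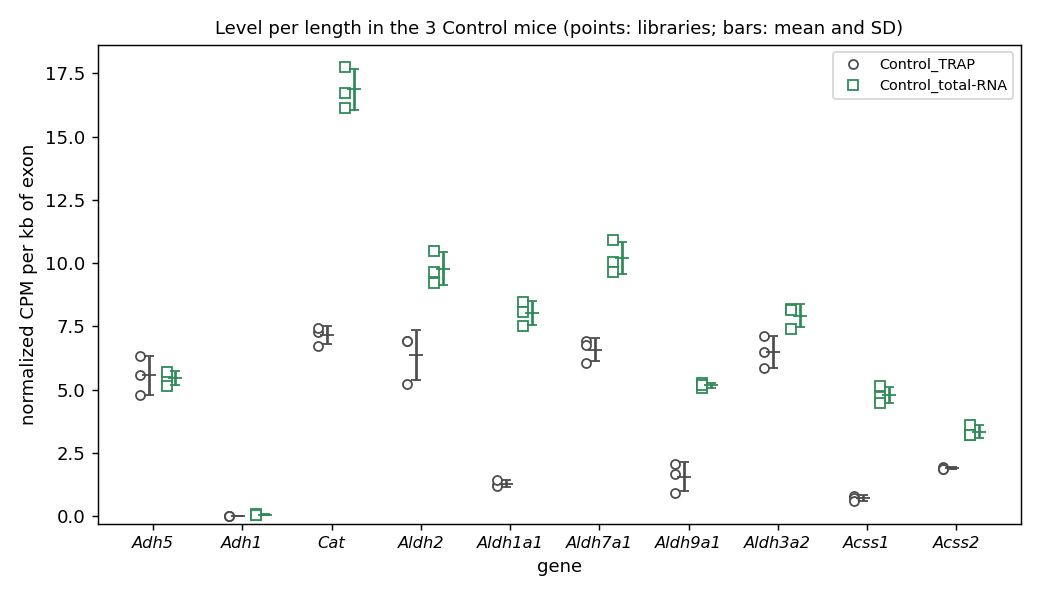
Normalized CPM per kb of exon for the 10 enzyme genes in the 3 Control mice. Circles are TRAP libraries, squares total-RNA libraries, and bars the mean and SD. Cat stands apart in total-RNA (16.9 CPM per kb) and not in TRAP (7.15), and Adh1 lies near 0 in both.

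The first comparison asked how each enzyme transcript is divided between the TRAP pool and the total-RNA of the same mice. In Control mice, 8 of the 9 genes tested were lower in TRAP and 0 were higher, while 30.4% of all 14072 genes were called lower in this comparison. The 8 genes were also lower without overlap between the libraries, as 33.2% of all genes were. In a single fit over all 22 libraries, which called 6023 of all genes against 8428 here, 6 of the 9 were called, without Aldh7a1 and Aldh3a2. The median log2FC of the 9 genes was -0.84, against 0.015 for all genes tested. The gene that was not called was Adh5. Acss1 and Aldh1a1 had the largest differences, Aldh3a2, Aldh2, Aldh7a1 and Acss2 the smallest of the 8, and Cat and Aldh9a1 lay between them. Both libraries of a mouse entered these fits as separate samples, so p-values rest on the spread between libraries within each group of these mice. In bulk tissue, fewer cells of a type in a pool and less RNA per cell cannot be told apart.

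Adh5 is the class III alcohol dehydrogenase, which removes formaldehyde bound to glutathione and oxidizes ethanol poorly. It lies on chromosome 3 from 138443093 to 138455499. Its level was 34.2, 30.2 and 25.9 CPM in the Control_TRAP libraries and 29.7, 27.8 and 30.9 CPM in Control_total-RNA. The ranges overlapped, the log2FC was 0.01 and its 95% interval ran from -0.26 to 0.27. Of the 11 mice, 8 had more Adh5 in TRAP than in total-RNA by the ratio of their own libraries, 2 of 3 in Control, 4 of 4 in EtOH and 2 of 4 in EtOH + ABT-888.

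Cat, catalase, lies on chromosome 2 from 103453849 to 103485160. It was at 17.6, 18.999 and 19.5 CPM in Control_TRAP and at 42.1, 46.4 and 43.7 CPM in Control_total-RNA. Every TRAP library lay far below every total-RNA library, and Cat was 2.38-fold lower in TRAP (log2FC -1.25, SE 0.10, adjusted p 1.95e-06 by edgeR).

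Among the aldehyde dehydrogenases, Aldh1a1 differed most. Aldh1a1, a cytosolic enzyme that makes retinoic acid and also takes acetaldehyde, lies on chromosome 19 from 20492715 to 20643465. It was at 6.08, 5.76 and 7.11 CPM in Control_TRAP and at 37.1, 41.8 and 39.9 CPM in Control_total-RNA. The groups were far apart, a 6.32-fold lower level in TRAP (log2FC -2.66, SE 0.13, adjusted p 1.06e-07 by edgeR). Its near-identical relative Aldh1a7 had 273 counts over all libraries. How reads that fit both genes were counted is not given in the sources used here, so the division between them may be uncertain.

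Aldh9a1, the enzyme for 4-trimethylaminobutyraldehyde in carnitine synthesis, lies on chromosome 1 from 167349991 to 167368532. It was at 3.09, 5.65 and 6.94 CPM in Control_TRAP and at 17.2, 17.8 and 17.5 CPM in Control_total-RNA. The total-RNA libraries were close together and all above the TRAP libraries (log2FC -1.71, SE 0.22, adjusted p 5.11e-05 by edgeR).

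Aldh2, the mitochondrial acetaldehyde dehydrogenase, lies on chromosome 5 from 121566027 to 121593824. It was at 26.8, 35.6 and 35.4 CPM in Control_TRAP and at 53.7, 49.5 and 47.3 CPM in Control_total-RNA. The groups did not overlap, and Aldh2 was 1.55-fold lower in TRAP (log2FC -0.63, SE 0.12, adjusted p 0.000911 by edgeR).

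Aldh7a1, antiquitin, which removes the aldehyde of lysine breakdown and other aldehydes, was at 31.4, 35.9 and 35.0 CPM in Control_TRAP and at 56.5, 52.0 and 50.0 CPM in Control_total-RNA. It was 1.56-fold lower in TRAP with no overlap (log2FC -0.64, SE 0.10, adjusted p 0.000196 by edgeR). The single fit over all 22 libraries did not call it (log2FC -0.63, adjusted p 0.104 by edgeR).

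Aldh3a2, the fatty aldehyde dehydrogenase of the endoplasmic reticulum, lies on chromosome 11 from 61223417 to 61267464 and differed least of the 8. It was at 32.8, 36.5 and 39.9 CPM in Control_TRAP and at 41.5, 46.1 and 45.8 CPM in Control_total-RNA. The groups lay next to each other without overlap (log2FC -0.30, SE 0.11, adjusted p 0.0277 by edgeR). This call was lost without Control_TRAP replicate 1 (adjusted p 0.103 by edgeR), without Control_total-RNA replicate 2 (0.0980) and without Control_total-RNA replicate 3 (0.0781). The log2FC was -0.23, -0.27 and -0.28 in these fits.

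The acetyl-CoA synthetases were unlike each other. Acss1, on chromosome 2 from 150618105 to 150668500, was at 3.31, 2.99 and 2.39 CPM in Control_TRAP and at 21.1, 19.5 and 18.5 CPM in Control_total-RNA. Its difference was the largest of the 9, 6.98-fold (log2FC -2.80, SE 0.17, adjusted p 2.98e-07 by edgeR), and its TRAP values rest on 31 to 54 counts per library.

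Acss2, on chromosome 2 from 155517948 to 155585724, was at 19.5, 18.9 and 18.998 CPM in Control_TRAP and at 36.7, 32.6 and 32.4 CPM in Control_total-RNA. It was 1.79-fold lower in TRAP (log2FC -0.84, SE 0.11, adjusted p 5.08e-05 by edgeR). The 95% interval of Acss2 (-1.08 to -0.60) did not meet that of Acss1 (-3.19 to -2.42), while per length the 2 genes stood in opposite order in the 2 pools, with Acss1 above Acss2 in Control_total-RNA and below it in Control_TRAP.

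In the EtOH mice, 7 of the 9 genes were lower in EtOH_TRAP than in EtOH_total-RNA, against 26.5% of all genes, and in the EtOH + ABT-888 mice 8 of 9 were, against 21.5%. The medians of the 9 genes were -0.99 and -1.05 on the log2 scale, beside 0.030 and 0.050 for all genes tested. No enzyme gene was called higher in TRAP in any treatment. The gene that lost its place among the calls in EtOH mice was Aldh3a2 (log2FC -0.33, adjusted p 0.105 by edgeR), whose EtOH groups overlapped, although a single fit over all 22 libraries called it (adjusted p 0.0442 by edgeR).

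In EtOH, Acss1 (log2FC -2.86), Aldh1a1 (-2.57), Aldh9a1 (-1.62) and Aldh7a1 (-1.62) differed most between the pools. In EtOH + ABT-888, Aldh1a1 (-2.70), Acss1 (-2.19), Aldh9a1 (-1.44) and Aldh7a1 (-1.26) did. Adh5 was not called in either, with a log2FC of 0.19 (95% interval -0.16 to 0.53) in EtOH and of -0.05 (-0.41 to 0.31) in EtOH + ABT-888. Some of these calls were close to the threshold. In EtOH mice Aldh2 lost its call without EtOH_TRAP replicate 1 (adjusted p 0.0505 by edgeR), EtOH_TRAP replicate 3 (0.0556) or EtOH_total-RNA replicate 2 (0.0563), and Aldh3a2 gained one without EtOH_TRAP replicate 1 (0.0388). The log2FC of Aldh2 in the fits that lost the call was -0.58, -0.61 and -0.63, against -0.70 with all libraries. In EtOH + ABT-888 mice Aldh2 lost its call without total-RNA replicate 2 (adjusted p 0.0590 by edgeR), and Aldh3a2 without TRAP replicate 4 (0.0644), total-RNA replicate 2 (0.0617) or total-RNA replicate 4 (0.0686). The log2FC there was -0.46 for Aldh2, against -0.50 with all libraries. For Aldh3a2 it was -0.41, -0.44 and -0.43, against -0.44.

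Markers of other cells were lower in TRAP in each treatment. Of 33 markers of glia and vessels, 33 were lower in Control, 33 in EtOH and 31 in EtOH + ABT-888. The median log2FC per list lay between -3.41 and -3.10 in Control and between -3.23 and -2.85 in EtOH. In EtOH + ABT-888 it lay between -3.06 and -2.30. The summed level of the 9 astrocyte markers lay between 628 and 1308 CPM in Control_TRAP and between 7643 and 8612 CPM in Control_total-RNA, a median log2FC of -3.24. The 8 oligodendrocyte markers summed to between 353 and 464 CPM in Control_TRAP and between 2488 and 2751 CPM in Control_total-RNA. No marker of these lists was at 0 in any group mean. The 8 microglial markers (24.1 to 45.7 CPM summed in Control_TRAP, 363 to 372 CPM in Control_total-RNA) and the 8 markers of vessels (9.53 to 16.2 and 120 to 149 CPM) were likewise lower. The part of these cells in the values of Acss1, Aldh1a1 and Aldh9a1 was not tested.

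**Figure D2:**
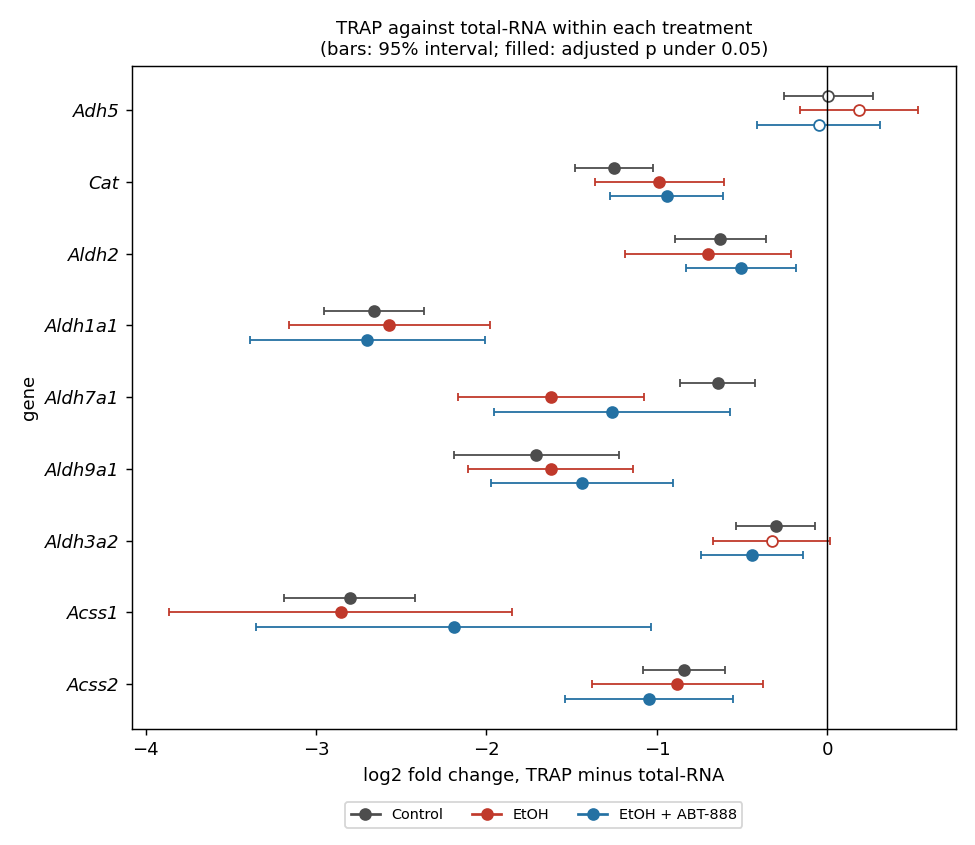
Log2 fold change of TRAP against total-RNA for the 9 tested enzyme genes in Control, EtOH and EtOH + ABT-888 mice, with 95% intervals. Filled points passed an adjusted p of 0.05 by edgeR. The interval of Adh5 includes 0 in all 3 treatments, and Aldh1a1 and Acss1 lie farthest to the left.

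The second comparison asked whether ethanol changed the enzyme transcripts in the TRAP pool. In EtOH_TRAP against Control_TRAP, 1 of the 9 genes, Aldh7a1, fell and 0 rose, while 2.47% of all genes were called lower. The median log2FC of the 9 genes was -0.03, against 0.017 for all genes. At an unadjusted p under 0.05, Aldh7a1 was again the only one of the 9.

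Aldh7a1 was at 31.4, 35.9 and 35.0 CPM in Control_TRAP and at 12.7, 9.10, 16.3 and 22.8 CPM in EtOH_TRAP. Every EtOH library lay below every Control library, which held for 11.9% of all genes. The means were 34.1 ± 2.39 CPM with saline (SD, n = 3) and 15.2 ± 5.84 CPM with ethanol (SD, n = 4), a 2.22-fold lower level (log2FC -1.15, SE 0.26, adjusted p 0.0279 by edgeR). The call was lost in 4 of the 7 fits that left out 1 library, without Control_TRAP replicate 1 (adjusted p 0.0941 by edgeR), replicate 2 (0.115) or replicate 3 (0.118), and without EtOH_TRAP replicate 1 (0.0548), with a log2FC between -1.41 and -0.97 over the 7 fits. The calls over all genes fell from 737 to 94, 84 and 112 without Control_TRAP replicates 1, 2 and 3. Without EtOH_TRAP replicate 1 they were 607.

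In total-RNA of the same mice Aldh7a1 was at 56.5, 52.0 and 50.0 CPM in Control and at 39.9, 43.5, 52.5 and 49.2 CPM in EtOH. The groups overlapped there (log2FC -0.19, 95% interval -0.45 to 0.07, adjusted p 0.287 by edgeR). Taken mouse by mouse, the log2 ratio of TRAP to total-RNA of Aldh7a1 was -0.85, -0.53 and -0.51 in the 3 Control mice and -1.65, -2.25, -1.68 and -1.11 in the 4 EtOH mice. The ratios of the groups did not overlap, but the share of all genes with such a gap was not counted, so no weight is given to it. The interaction of EtOH with sample type over all 22 libraries, a test that does not pair the libraries of a mouse, gave -0.98 on the log2 scale (SE 0.41), with an unadjusted p of 0.0254 and an adjusted p of 0.9998 by edgeR, so that it was not called. None of the 9 genes was called in the interaction, where 0.0213% of all genes were, and 1 (Aldh7a1) had an unadjusted p under 0.05. The likelihood ratio test also called 0 of the 9, and 16 of all genes against 3 by the quasi-likelihood test. With the mouse as a block, which pairs its libraries, 0 of the 9 and 14 of all genes were called.

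Aldh7a1 shares 5.79% of its exon bases with Phax on the opposite strand, and whether the counting used strand is not given in the sources used here. The level of Phax was 52.8 CPM in Control_TRAP and 69.1 CPM in EtOH_TRAP, the other direction from Aldh7a1, without a call (log2FC 0.41, adjusted p 0.177 by edgeR). Of the markers, 0 of 9 for astrocytes and 0 of 8 for oligodendrocytes were called in EtOH_TRAP against Control_TRAP, and their summed levels overlapped (329 to 1226 CPM in EtOH_TRAP for astrocytes, 334 to 767 CPM for oligodendrocytes). Of the 8 excitatory markers 1 was called lower (Neurod6, log2FC -1.68), with a median of -0.87 over the list and summed levels of 4307 to 5831 CPM in EtOH_TRAP and 4972 to 6299 CPM in Control_TRAP. Of the 8 microglial markers 1 was called lower (P2ry12, -3.46). Their part in the value of Aldh7a1 was not tested.

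The other 8 genes were not called in EtOH_TRAP. Acss2 was at 19.5, 18.9 and 18.998 CPM in Control_TRAP and at 13.2, 8.87, 13.1 and 18.8 CPM in EtOH_TRAP. Its EtOH libraries lay below the Control libraries, the nearest by a small margin, as 11.9% of all genes did (log2FC -0.49, 95% interval -1.01 to 0.02, adjusted p 0.236 by edgeR). Acss1 was at 3.42, 0.603, 0.934 and 2.79 CPM in EtOH_TRAP, with 2 libraries inside or above and 2 below the Control range of 2.39 to 3.31 CPM (log2FC -0.59, 95% interval -1.81 to 0.62).

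For the remaining genes in EtOH_TRAP against Control_TRAP the intervals of the log2FC were wide. They ran from -0.42 to 0.47 for Cat, from -0.65 to 0.44 for Aldh2, from -0.41 to 1.03 for Aldh1a1 and from -0.21 to 1.25 for Aldh9a1. Aldh3a2 (-0.41 to 0.35) and Adh5 (-0.15 to 0.68) completed the list. Aldh2 was at 22.6, 25.3, 25.2 and 47.1 CPM in the 4 EtOH_TRAP libraries, with 3 below and 1 above all of the Control_TRAP libraries.

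In total-RNA, ethanol was followed by lower levels of both acetyl-CoA synthetases. Of the 9 genes, Acss1 and Acss2 fell in EtOH_total-RNA against Control_total-RNA and 0 rose, against 8.6% of all genes called lower. The median log2FC of the 9 genes was -0.05, beside 0.0011 for all genes. Cat and Aldh9a1 had an unadjusted p under 0.05 and were not called.

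Acss1 was at 21.1, 19.5 and 18.5 CPM in Control_total-RNA and at 13.5, 12.9, 10.5 and 16.9 CPM in EtOH_total-RNA. All 4 EtOH libraries lay below the Control libraries, with means of 19.7 ± 1.35 CPM (SD, n = 3) and 13.5 ± 2.61 CPM (SD, n = 4), a 1.46-fold lower level (log2FC -0.55, SE 0.16, adjusted p 0.0322 by edgeR). It shares 2.74% of its exon bases with E130215H24Rik on the opposite strand, whose mean was 0.142 CPM with saline and 0.698 CPM with ethanol in total-RNA.

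Acss2 was at 36.7, 32.6 and 32.4 CPM in Control_total-RNA and at 22.3, 22.3, 30.5 and 22.9 CPM in EtOH_total-RNA. Again no library overlapped, although 1 EtOH library stood near the Control range, with means of 33.9 ± 2.44 CPM (SD, n = 3) and 24.5 ± 4.01 CPM (SD, n = 4), a 1.38-fold lower level (log2FC -0.47, SE 0.14, adjusted p 0.0342 by edgeR). Acss2 shares 3.89% of its exon bases with Gss, 3.3% with Acss2os and 1.94% with Ggt7, all on the opposite strand. Gss (7.90 CPM with saline, 6.03 CPM with ethanol, log2FC -0.39, adjusted p 0.175 by edgeR) and Ggt7 (53.5 and 66.8 CPM, log2FC 0.32, adjusted p 0.176) were not called.

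Both calls were close to the threshold. In a single fit over all 22 libraries neither gene was called, with an adjusted p by edgeR of 0.588 for Acss1 and 0.289 for Acss2, at the same log2FC of -0.55 and -0.47. That fit called 151 of all genes, against 2482 in the main comparison. Acss1 lost its call without Control_total-RNA replicate 1 (adjusted p 0.134 by edgeR), 2 (0.0993) or 3 (0.0737) and without EtOH_total-RNA replicate 1 (0.0566), 2 (0.0642) or 3 (0.0602). Acss2 lost it without Control_total-RNA replicate 1 (adjusted p 0.155 by edgeR), 2 (0.0917) or 3 (0.0807) and without EtOH_total-RNA replicate 1 (0.0806) or 2 (0.0725). Both genes kept a negative log2FC in all 7 of these fits, between -0.68 and -0.45 for Acss1 and between -0.59 and -0.41 for Acss2. Of all genes, 943, 878 and 1226 were called without Control_total-RNA replicates 1, 2 and 3. Without EtOH_total-RNA replicates 1, 2 and 3 the calls over all genes were 2091, 1628 and 2177.

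The promoters of the 2 synthetase genes are shown because these genes fell together. The windows are those of RefSeq on GRCm38.p6, from 250 bases before to 50 bases after the RefSeq start (8 of the 10 genes had a window), which is not the start that GENCODE gives for either gene. Acss1 is at chr2:150668191-150668490 on the minus strand and Acss2 at chr2:155517793-155518092 on the plus strand, both written 5′ to 3′ in the direction of the gene. Capitals mark every match, on either strand, to the GC box GGGCGG, the CCAAT box CCAAT, the E-box CACGTG and the TATA box TATAAA, and no match overlapped another.
Acss1: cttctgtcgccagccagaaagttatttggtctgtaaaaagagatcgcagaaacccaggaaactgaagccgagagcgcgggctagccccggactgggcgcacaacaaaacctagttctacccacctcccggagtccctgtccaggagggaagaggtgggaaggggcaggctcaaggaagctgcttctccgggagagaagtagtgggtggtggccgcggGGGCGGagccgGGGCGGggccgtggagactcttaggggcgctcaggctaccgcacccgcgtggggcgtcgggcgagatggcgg
Acss2: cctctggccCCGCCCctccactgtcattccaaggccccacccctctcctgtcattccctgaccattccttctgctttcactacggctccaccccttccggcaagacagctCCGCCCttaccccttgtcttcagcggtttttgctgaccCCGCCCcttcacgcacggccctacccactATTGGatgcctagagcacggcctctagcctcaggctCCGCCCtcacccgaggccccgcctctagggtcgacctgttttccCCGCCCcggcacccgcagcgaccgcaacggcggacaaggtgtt
The Acss1 window held 2 GC boxes and the Acss2 window 5 GC boxes and 1 CCAAT box, both without an E-box or TATA box of these letters. Of 32841 RefSeq windows of the same length, 35.7% held the GC box, 37.4% the CCAAT box, 7.15% the E-box and 13.6% the TATA box. The bases G and C made up 64.3% of the Acss1 window and 65% of the Acss2 window. A match is a run of letters and not a measured binding site.

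Cat was at 42.1, 46.4 and 43.7 CPM in Control_total-RNA and at 34.4, 34.3, 36.6 and 41.5 CPM in EtOH_total-RNA. The EtOH libraries lay below the Control libraries, 1 of them by a small margin (log2FC -0.26, SE 0.11, adjusted p 0.116 by edgeR). Of all genes, 15.8% were lower without overlap in this comparison and 14.7% higher.

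Aldh9a1 went the other way, from 17.2, 17.8 and 17.5 CPM in Control_total-RNA to 21.5, 26.5, 24.4 and 18.6 CPM in EtOH_total-RNA. All 4 EtOH libraries lay above the Control libraries, as they did for 14.7% of all genes (log2FC 0.38, SE 0.14, adjusted p 0.0733 by edgeR). DESeq2 called it (adjusted p 0.0436). Without EtOH_total-RNA replicate 4, the EtOH library nearest to Control in both genes, edgeR gave an adjusted p of 0.0342 for Cat and 0.0195 for Aldh9a1. That fit called 3616 of all genes, against 2482 with the library.

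No difference was called for the other 5 genes in EtOH_total-RNA, and the intervals were narrower than in TRAP. The 95% interval of the log2FC ran from -0.29 to 0.19 for Aldh2, from -0.27 to 0.23 for Aldh3a2, from -0.19 to 0.32 for Adh5, from -0.05 to 0.45 for Aldh1a1 and from -0.45 to 0.07 for Aldh7a1. For Aldh2, the corresponding interval in TRAP reached down to -0.65.

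Other cells differed between these total-RNA groups. Of the 8 microglial markers 6 were lower in EtOH_total-RNA, with summed levels of 149 to 232 CPM in EtOH and 363 to 372 CPM in Control, and of the 8 excitatory markers 3 were lower (4267 to 5123 CPM and 4445 to 5386 CPM). Of the 9 astrocyte markers 2 were higher and 1 was lower (7188 to 9204 CPM and 7643 to 8612 CPM), of the 8 oligodendrocyte markers 2 were higher, of the 6 inhibitory markers 1 was higher (Gad2, log2FC 0.40), of the 8 markers of vessels 1 was lower (Flt1, -0.45), and of the 6 markers of meninges and choroid plexus 3 were lower (27.8 to 47.9 CPM and 47.9 to 149.8 CPM). Their part in the values of Acss1, Acss2, Cat and Aldh9a1 was not tested.

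**Figure D3:**
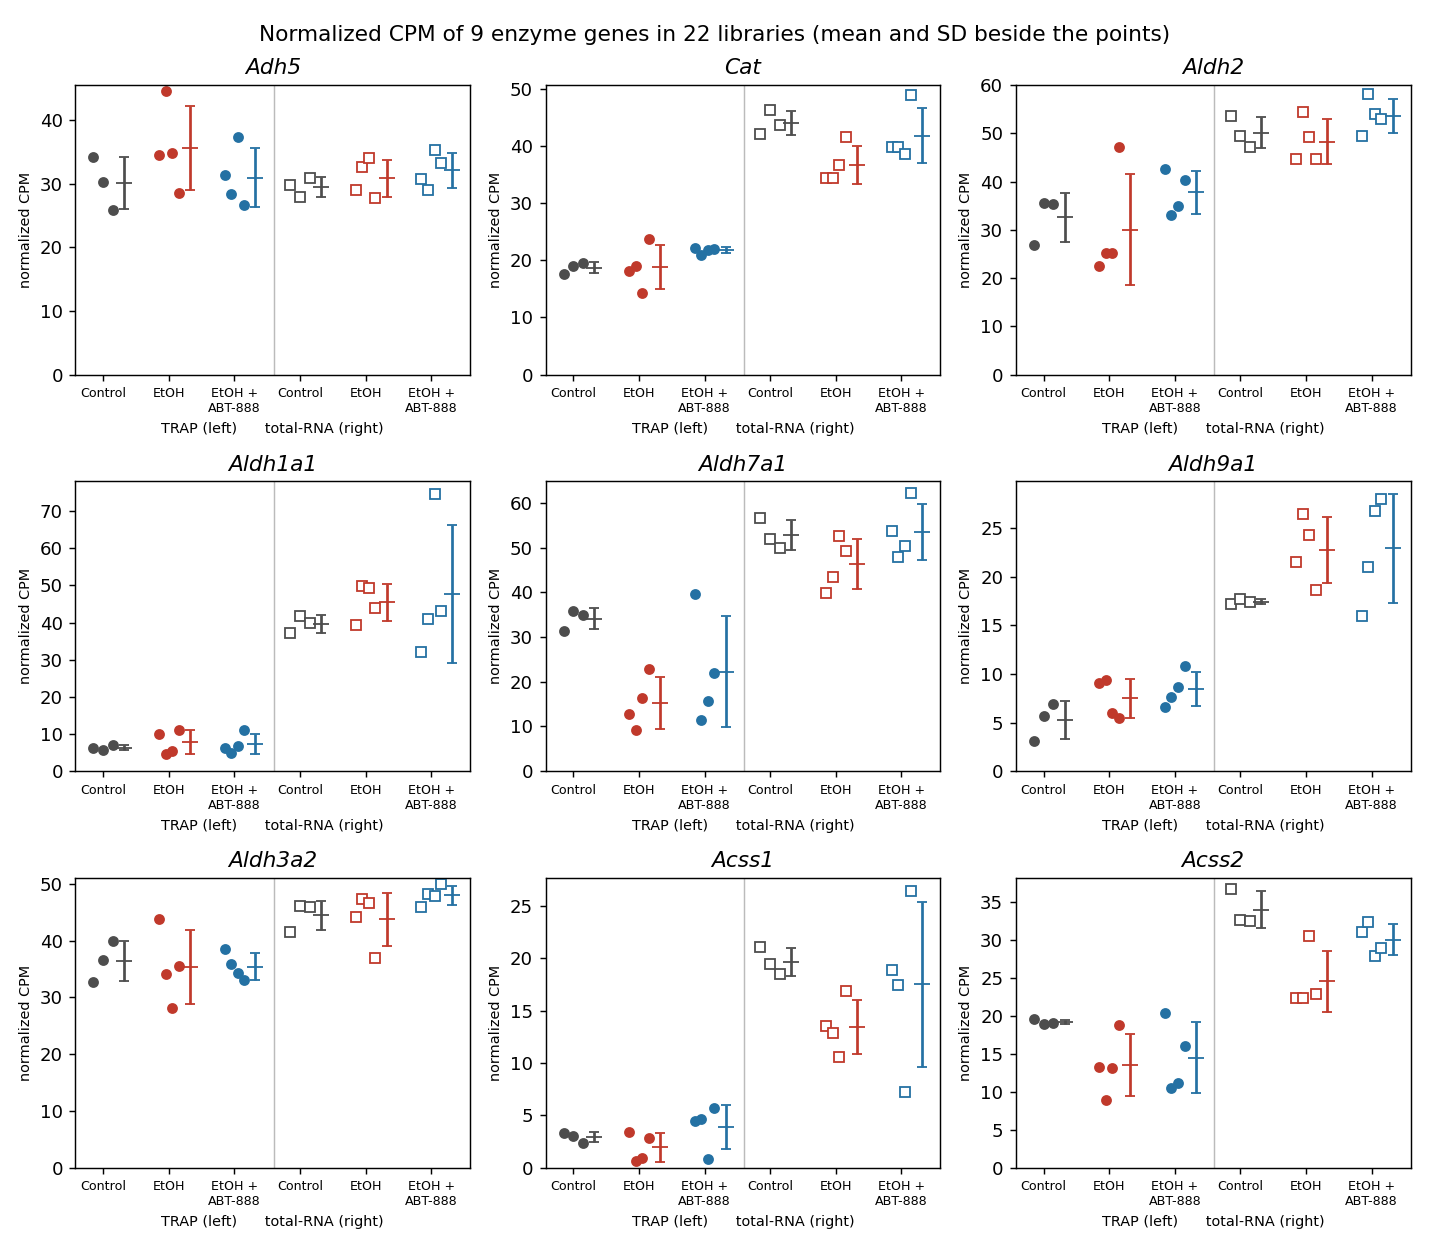
Normalized CPM of the 9 tested enzyme genes in each of the 22 libraries, with circles for TRAP and squares for total-RNA, and the mean and SD beside the points of each group. Aldh7a1 in EtOH_TRAP (9.10 to 22.8 CPM) lies below Control_TRAP (31.4 to 35.9 CPM), and Acss1 and Acss2 in EtOH_total-RNA lie below Control_total-RNA.

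The third comparison concerned mice that also received ABT-888. In EtOH + ABT-888_TRAP against Control_TRAP, edgeR called 0 of the 9 genes, and 0 had an unadjusted p under 0.05. Of all 14072 genes, edgeR's quasi-likelihood test called 0.476% in this comparison. DESeq2 and exactTest also called 0 of the 9, and 420 and 318 of all genes. Against Control_total-RNA, EtOH + ABT-888_total-RNA likewise gave 0 calls among the 9 by edgeR's quasi-likelihood test, with 0 at an unadjusted p under 0.05, and that test called 0.263% of all genes. DESeq2 and exactTest called 0 of the 9 there, and 621 and 544 of all genes. These comparisons use the same Control libraries as those of EtOH, so the values are set side by side.

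Aldh7a1 was at 39.7, 11.4, 15.7 and 21.99 CPM in EtOH + ABT-888_TRAP. Replicate 1 lay above every Control library and the other 3 below, in the range of the EtOH_TRAP libraries (log2FC from Control -0.61, 95% interval -1.31 to 0.10, adjusted p 0.486 by edgeR). Without that replicate Aldh7a1 was called (log2FC -1.03, adjusted p 0.0455 by edgeR), and so were 373 of all genes, against 67 with it. The same mouse had the highest ratio of TRAP to total-RNA of Aldh7a1 among all 11, -0.44 on the log2 scale, where the other 3 mice of the group were at -2.07, -1.67 and -1.50. Its TRAP library also held the highest summed level of the astrocyte markers, 1318 CPM, in a group whose other libraries were at 494, 635 and 979 CPM. The oligodendrocyte markers summed to 905 CPM in it and to 332, 489 and 1536 CPM in the other libraries. By astrocyte markers the next highest TRAP libraries were Control replicate 1 (1308 CPM, Aldh7a1 at 31.4 CPM) and EtOH replicate 1 (1226 CPM, Aldh7a1 at 12.7 CPM). The part of these cells in the Aldh7a1 value of EtOH + ABT-888_TRAP replicate 1 was not tested.

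Acss1 varied widely within the EtOH + ABT-888 groups. It was at 4.43, 4.65, 0.791 and 5.67 CPM in TRAP and at 18.9, 17.5, 7.23 and 26.4 CPM in total-RNA. The same mouse, replicate 3, was the lowest in both pools, and replicate 4 the highest in both. The log2FC from Control was 0.43 (95% interval -0.78 to 1.64) in TRAP and -0.17 (-0.88 to 0.55) in total-RNA.

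Acss2 was at 30.99, 32.3, 27.8 and 28.9 CPM in EtOH + ABT-888_total-RNA, between the EtOH and the Control means. All 4 libraries lay below the lowest Control library, 1 of them by a small margin, as for 8.62% of all genes (log2FC -0.17, 95% interval -0.43 to 0.09). In TRAP it was at 20.3, 10.5, 11.1 and 16.01 CPM, with 1 library above and 3 below the Control libraries.

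Replicate 3 of EtOH + ABT-888_total-RNA also held the highest level of Aldh1a1 of all libraries, 74.5 CPM, where the other 3 libraries of the group were at 32.1, 41.1 and 43.2 CPM. The log2FC of Aldh1a1 from Control in total-RNA was 0.27 (95% interval -0.26 to 0.81). In TRAP that mouse was not high, at 6.75 CPM among 6.23, 4.95 and 11.0 CPM. The same total-RNA library had the highest summed level of astrocyte markers in its group (8915 CPM, the others 7476 to 7547 CPM) and the lowest of microglial markers (155 CPM, the others 213 to 299 CPM). Its oligodendrocyte markers summed to 3504 CPM, where the others were at 1746, 3121 and 3254 CPM. By astrocyte markers EtOH_total-RNA replicate 3 was higher (9204 CPM), with Aldh1a1 at 49.2 CPM. The part of these cells in the Aldh1a1 and Acss1 values of EtOH + ABT-888_total-RNA replicate 3 was not tested.

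Aldh9a1 had a positive log2FC with EtOH + ABT-888 as with EtOH, 0.69 (95% interval -0.05 to 1.43) in TRAP and 0.40 (-0.03 to 0.83) in total-RNA, both overlapping with Control. Cat was at 22.2, 21.02, 21.7 and 22.1 CPM in EtOH + ABT-888_TRAP. All 4 libraries lay above the Control_TRAP libraries, as for 6.23% of all genes, and Cat was not called (adjusted p 0.657 by edgeR), with an interval of the log2FC that included 0 (-0.18 to 0.64). In total-RNA, Cat was at 39.8, 39.8, 38.7 and 49.0 CPM (log2FC -0.07, 95% interval -0.34 to 0.20).

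For Adh5, Aldh2 and Aldh3a2 the log2FC from Control with EtOH + ABT-888 was 0.06, 0.22 and -0.03 in TRAP and 0.13, 0.10 and 0.11 in total-RNA, and Aldh7a1 in total-RNA was at 0.02. Over the 9 genes the median was 0.22 in TRAP (all genes 0.024) and 0.10 in total-RNA (all genes -0.0013).

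**Figure D4:**
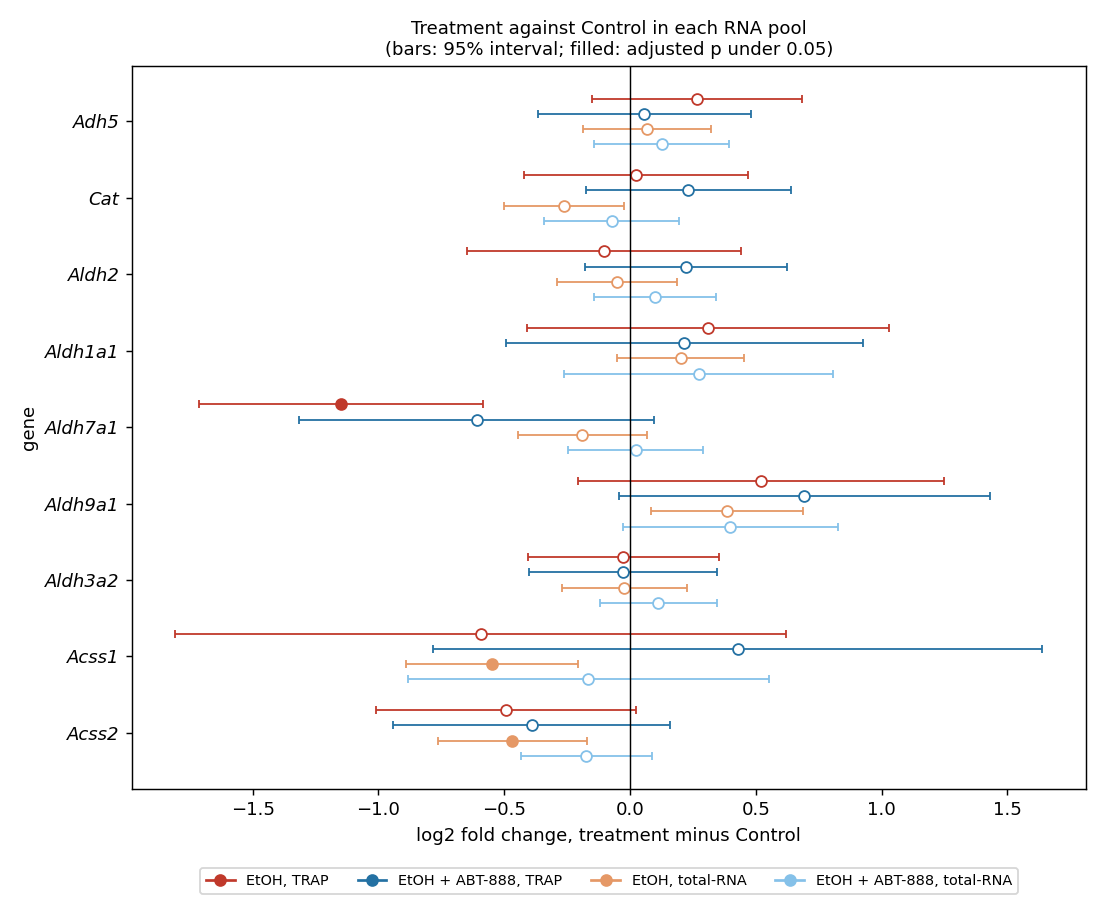
Log2 fold change of each treatment from Control, within TRAP and within total-RNA, with 95% intervals, for the 9 tested enzyme genes. The 3 filled points, Aldh7a1 with EtOH in TRAP and Acss1 and Acss2 with EtOH in total-RNA, passed an adjusted p of 0.05 by edgeR, and the intervals are wider in TRAP than in total-RNA.

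The direct comparison of EtOH + ABT-888 with EtOH, which holds the effect of the inhibitor on top of ethanol, gave 0 calls among the 9 genes in TRAP and 0 in total-RNA by edgeR, DESeq2 and exactTest. None had an unadjusted p under 0.05. Of all genes, edgeR called 0% in either pool, with 136 in TRAP and 269 in total-RNA at an unadjusted p under 0.05, and DESeq2 and exactTest each called 0 in TRAP and 2 in total-RNA. In total-RNA the log2FC was positive for 9 of 9 genes, with a median of 0.15 beside 0.00059 for all genes, and the ranges of the libraries overlapped for each of the 9, where 1.36% of all genes had no overlap. The sign of Aldh1a1 and of Aldh9a1 was lost in fits without single libraries. Acss1 was at 0.38 (95% interval -0.28 to 1.04) and Acss2 at 0.29 (-0.01 to 0.60), and without EtOH + ABT-888_total-RNA replicate 4 Acss1 was at 0.12. In TRAP, 7 of 9 were positive with a median of 0.17 (all genes 0.0033), among them Acss1 (1.02, -0.37 to 2.41) and Aldh7a1 (0.54, -0.24 to 1.31), which was at 0.12 without EtOH + ABT-888_TRAP replicate 1. These intervals hold both no difference and a return to the Control level.

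The rest of the pathway was followed in 40 genes chosen for their role, with earlier results of these data known, and 31 of them passed the filter. In Control_TRAP against Control_total-RNA, 11 of the 31 were higher and 13 lower, with a median log2FC of -0.11, while 29.5% of all genes were called higher and 30.4% lower. Of 10 genes that remove peroxide and superoxide, 7 were higher in TRAP and 2 were lower, beside the same 29.5% and 30.4% of all genes. Among the other aldehyde dehydrogenases and a reductase, 1 of 11 was higher and 6 were lower, and of 7 genes of acetate transport and acetyl-CoA 1 was higher and 4 were lower.

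The 3 genes with the smallest p in the higher direction in Control were Gpx1, the glutathione peroxidase of the cytosol (141.7 ± 10.4 CPM in TRAP, 44.7 ± 2.95 in total-RNA, log2FC 1.65), and the peroxiredoxins Prdx5 (log2FC 0.79) and Prdx3 (0.53). The 2 lower genes of this group were Prdx6 (log2FC -1.35) and Prdx1 (-0.42), named after their values were seen, and Cat, which also removes peroxide, was lower as well. In the lower direction they were Aldh1l1, a folate enzyme used as an astrocyte marker (5.70 ± 1.00 and 42.3 ± 4.51 CPM, log2FC -2.94), Adhfe1, a hydroxyacid-oxoacid transhydrogenase (-3.61), and Aldh6a1, of valine breakdown (-1.96).

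With EtOH, 12 of the 31 were higher and 10 lower in TRAP, against 24.3% and 26.5% of all genes. The smallest p-values were those of Gpx1 (1.34), Prdx5 (0.85) and Sod1 (0.92) among the higher genes, and of Aldh6a1 (-2.26), Adhfe1 (-3.52) and Prdx6 (-1.70) among the lower, with the log2FC in parentheses. With EtOH + ABT-888, 5 were higher and 8 lower, near the 19.5% and 21.5% of all genes. Here the smallest p-values were those of Gpx1 (1.42), Sod1 (0.88) and Prdx5 (0.68), and of Aldh1l1 (-2.90), Aldh6a1 (-2.05) and Adhfe1 (-3.07).

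**Figure D5:**
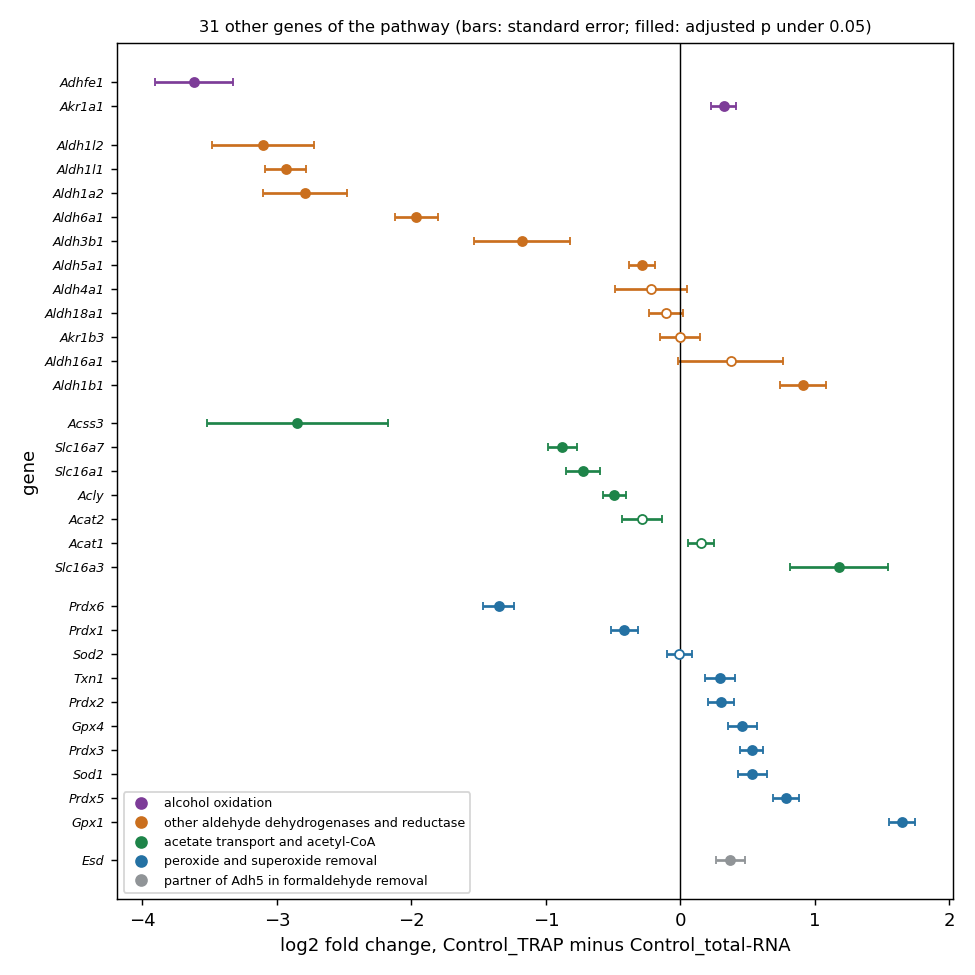
Log2 fold change of Control_TRAP against Control_total-RNA for the 31 other pathway genes that passed the filter, by role, with standard errors. Filled points passed an adjusted p of 0.05 by edgeR. Of the 10 genes that remove peroxide and superoxide 7 were called higher (Gpx1 at 1.65), and 6 of 11 aldehyde dehydrogenases and reductases were called lower.

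In EtOH_TRAP against Control_TRAP 2 of these 31 genes fell and 0 rose, beside 2.47% of all genes called lower and 2.77% higher. Slc16a7, a carrier of lactate, pyruvate and related acids that is known from neurons, had a mean of 78.5 ± 11.1 CPM in Control (SD, n = 3) and of 23.8 ± 10.1 CPM in EtOH (SD, n = 4), a log2FC of -1.71 (SE 0.29, adjusted p 0.00894 by edgeR). Aldh18a1, which starts proline synthesis, fell from 21.3 ± 2.76 to 11.3 ± 2.47 CPM (log2FC -0.90, adjusted p 0.0344 by edgeR).

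In EtOH_total-RNA against Control_total-RNA the same 2 genes fell, Slc16a7 by 1.16 and Aldh18a1 by 0.63 on the log2 scale (adjusted p 0.00787 and 0.0185 by edgeR), and 2 rose, beside 8.6% of all genes called lower and 9.04% higher. Aldh6a1 rose from 48.8 ± 2.11 to 83.9 ± 7.15 CPM (log2FC 0.78, adjusted p 0.000765 by edgeR). Acss3, a mitochondrial synthetase that prefers propionate, rose from 1.16 ± 0.295 to 2.85 ± 1.16 CPM (log2FC 1.30, adjusted p 0.0245 by edgeR), while its relatives Acss1 and Acss2 fell. In the comparisons of EtOH + ABT-888 with Control and with EtOH, and in the interaction, edgeR's quasi-likelihood test called 0 of the 31, and at most 0.476% of all genes in any of them.

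Over the 22 libraries, after removal of the mean of each pool, the genes whose level followed Cat most closely were Klhl5 (Pearson's r of log2 CPM 0.77), C2cd2 (0.73) and Slx1b (0.72). For Aldh2 they were Hspa1a (0.78), Bmp1 (0.77) and Thbs4 (0.77), and for Aldh3a2 Cdc42ep4 (0.73), Npas1 (0.72) and Ptpru (0.72). These 3 enzyme genes had the highest level per length as a mean over all 22 libraries of both pools, although Aldh7a1 lay above Aldh3a2 in the 3 total-RNA groups and in Control_TRAP. The libraries share mice and treatments, and the values are the highest among all protein-coding genes, so they are a description only.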

How the data were processed

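PFC total-RNA and TRAP RNA were depleted of rRNA, made into CORALL libraries and sequenced in pairs by the authors, who aligned reads to mm10 with STAR and deposited whole-number raw counts per gene from featureCounts with an ENSEMBL annotation, without normalization. Versions and the strand setting are not given in the sources used here. Groups came from the labels, and TRAP and total-RNA libraries that the labels give the same animal number come from the same mouse.

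The 39056 genes were named from GENCODE release 21 (184 not named). Genes with at least 500 counts over the 22 libraries and detected in at least 3 were kept (14072). In R 4.3.3, edgeR 4.0.16 (TMM, quasi-likelihood test, Benjamini-Hochberg adjustment over all 14072 genes) was fitted to the groups compared, and to all libraries for the interaction. DESeq2 1.42.0, exactTest, the likelihood ratio test, RLE factors, no filter, 1 fit over all libraries, the mouse as a block and each library left out were alternatives. Pairing rests on the shared animal, and libraries of a mouse deviated together (r 0.102 to 0.622). The 10 enzymes, the 40 pathway genes and the marker lists were chosen with earlier results of these data known. Pathway genes were named if called, all of them up to 6, otherwise the 3 with the smallest p in each direction. Normalized CPM per kb used the exon union length. Markers of blood and meninges were counted as well: in Control, 5 of 5 blood markers and 5 of 6 of meninges and choroid plexus were lower in TRAP.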

Additional observations from a re-analysis of the deposited data

Results flagged for a closer look

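In the 36 sets of 4 libraries (9 genes in 4 groups), the highest or lowest library was tested for its distance from the rest by Dixon's ratio, its gap to the nearest library over the whole range. Chance passes about 1 set in 20, and 3 sets passed. Aldh2 in EtOH_TRAP replicate 4 was at 47.1 CPM, where the other 3 libraries lay between 22.6 and 25.3 CPM (ratio 0.89). Acss2 in EtOH_total-RNA replicate 3 was at 30.5 CPM, where the others lay between 22.3 and 22.9 CPM (ratio 0.922). Cat in EtOH + ABT-888_total-RNA replicate 4 was at 49.0 CPM, where the others lay between 38.7 and 39.8 CPM (ratio 0.887). Groups of 3, which include both Control groups, were not tested.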

How the results depend on the processing

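In EtOH_total-RNA against Control_total-RNA the count of called enzyme genes, 2, was 0 in a single fit over all 22 libraries and between 0 and 4 without 1 library (4, with Cat and Aldh9a1 added, without EtOH_total-RNA replicate 4; 1 without EtOH_total-RNA replicate 3; 0 without replicate 1 or 2 of EtOH_total-RNA or any Control_total-RNA library). Of all genes, 2482 were called in the main fit of that comparison, 151 in the single fit, and between 878 and 3616 without 1 library. The count of called enzyme genes was between 0 and 1 without 1 library in EtOH_TRAP and in EtOH + ABT-888_TRAP against Control_TRAP. There the calls over all genes lay between 84 and 1550 (main fit 737) and between 0 and 373 (main fit 67). With the mouse as a replicate block the counts of TRAP against total-RNA were 8, 7 and 8 in Control, EtOH and EtOH + ABT-888, and 0 for the interaction, and the block changed no call. Of all genes, the fits with the block called 8788, 8276, 7642 and 14, in the same order. Over the single genes, 456 values at other settings and 639 without 1 library kept their direction and their side of the threshold, 5 and 25 lost a call, 2 and 4 gained one, and 5 and 52, none of them called, changed sign. In Control, Aldh7a1 and Aldh3a2 were not called as lower in TRAP in the single fit (adjusted p 0.104 and 0.117 by edgeR), Aldh3a2 was called there in EtOH (0.0442), and without the filter it was not called in EtOH + ABT-888 (0.0658). Without the filter the median log2FC of all genes between TRAP and total-RNA moved to between -0.19 and -0.16. The 13 to 91 counts of Acss1 per TRAP library limit its precision.

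All sign changes were in values that were not called. Adh5 in Control_TRAP against Control_total-RNA was at -0.0032 with RLE factors, -0.0033 with DESeq2 and -0.0058 without the filter. Without the filter, Aldh3a2 was at -0.014 in EtOH + ABT-888_TRAP against EtOH_TRAP and at 0.0011 in the interaction. Without 1 library, the log2FC of TRAP against total-RNA of Adh5 lay between -0.083 and 0.11 in Control and between -0.17 and 0.015 in EtOH + ABT-888. In EtOH_TRAP against Control_TRAP the ranges were -0.11 to 0.13 for Cat, -0.41 to 0.017 for Aldh2 and -0.13 to 0.064 for Aldh3a2. In EtOH + ABT-888_TRAP they were -0.042 to 0.16 for Adh5, -0.094 to 0.046 for Aldh3a2 and -0.057 to 0.34 for Aldh1a1 against Control_TRAP, and -0.37 to 0.13 for Aldh1a1, -0.093 to 0.10 for Aldh3a2 and -0.092 to 0.31 for Acss2 against EtOH_TRAP. In total-RNA they were -0.069 to 0.045 for Aldh3a2 with EtOH against Control, and with EtOH + ABT-888 -0.057 to 0.071 for Aldh7a1, -0.030 to 0.42 for Aldh1a1 and -0.44 to 0.091 for Acss1 against Control, and -0.091 to 0.16 for Aldh9a1 and -0.23 to 0.22 for Aldh1a1 against EtOH. In the interaction they were -0.13 to 0.36 for Aldh9a1, -0.50 to 0.25 for Acss1, -0.37 to 0.044 for Aldh2, -0.13 to 0.28 for Aldh1a1, -0.24 to 0.12 for Acss2 and -0.14 to 0.078 for Aldh3a2.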
